A study of Mus musculus with 40 samples.

Results

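The genes described here encode the chains of the collagens, and every protein-coding mouse gene whose symbol is Col, a number, the letter a and a number was taken as a member. Of 53647 gene identifiers in the deposited tables, 44 met this rule, and they were grouped by the kind of collagen they build as 8 fibrillar, 7 cartilage, 9 basement membrane, 6 beaded, 4 transmembrane and 10 other chains. All 44 passed the filter on low values, which kept a gene if 2 or more libraries held a normalized count of 1 or more. RNA was sequenced from dissected pieces of larynx, esophagus and trachea of wild type FVB/N mice that received no treatment, with 2 libraries for each tissue, age and kind of library and 40 libraries in all. The study asked how gene expression varies within and between these organs during development. Embryos were sampled at 5 ages, the youngest E10.5 and the oldest E18.5 (E for embryonic day), in all 3 tissues, and the larynx was also taken at birth (P0) and from adults, whose age the labels give as 6 to 8 weeks. Per the study's methods, embryonic tissue was pooled from 20 animals at E15.5 and from 10 at the other embryonic ages, so that a library averages over animals. At E10.5 the labels name the laryngeal tissue as primitive laryngopharynx and in the P0, adult and part of the E15.5 libraries as vocal fold, and the name larynx is used for all. The 30 libraries named by a short code (E10.5 to E18.5) and the 10 named by a sequencing index (E15.5, P0 and adult) are called short-code and index libraries, and comparisons between groups were kept within a kind, apart from 1 that set the kinds against each other. The time courses took in libraries of both kinds.

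Collagens are proteins of the extracellular matrix in which polypeptide chains wind into a helix, and every chain carries a repeat of glycine followed by 2 other residues, often proline and hydroxyproline. Fibrillar chains form the long fibrils of connective tissue, cartilage chains the thinner fibrils of hyaline cartilage and their surface partners, and basement membrane chains the sheet under epithelia, around vessels and around muscle fibers. Beaded chains form the microfibrils of collagen VI, and transmembrane chains span the cell membrane, among them collagen XVII of the hemidesmosome. In the larynx and trachea, cartilage rings and plates hold the airway open, while the esophagus is a muscular tube without cartilage of its own.

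The repeat can be read in the gene sequence, and the exons below are shown because exons of this length carry the glycine repeat in whole units and are frequent in the fibrillar and cartilage genes. In the canonical transcripts of GENCODE vM39 (GRCm39), 469 of 1999 collagen coding exons were exactly 54 bases long (23.46%), against 1322 of 197910 coding exons over all 21770 protein-coding genes with such a transcript (0.668%). An exon of 54 bases that starts on a glycine codon encodes 6 units of glycine and 2 further residues. Each line gives 1 exon, 5′ to 3′ on the coding strand, with the glycine codons (GGN) in capitals.
Col1a1 (fibrillar, exon 8, chr11:94830730-94830783, plus strand): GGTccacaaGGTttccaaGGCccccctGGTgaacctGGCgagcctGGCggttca
Col1a2 (fibrillar, exon 8, chr6:4515481-4515534, plus strand): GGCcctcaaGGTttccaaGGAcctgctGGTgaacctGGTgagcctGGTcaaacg
Col3a1 (fibrillar, exon 6, chr1:45364520-45364573, plus strand): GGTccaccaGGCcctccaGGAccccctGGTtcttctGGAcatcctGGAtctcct
Col5a3 (fibrillar, exon 15, chr9:20712364-20712417, minus strand): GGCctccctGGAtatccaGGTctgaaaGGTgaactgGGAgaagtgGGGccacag
Col2a1 (cartilage, exon 6, chr15:97896426-97896479, minus strand): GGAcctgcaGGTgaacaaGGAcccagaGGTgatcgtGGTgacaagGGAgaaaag
Col11a2 (cartilage, exon 13, chr17:34270454-34270507, plus strand): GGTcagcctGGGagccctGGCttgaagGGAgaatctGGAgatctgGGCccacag
Col9a1 (cartilage, exon 11, chr1:24241095-24241148, plus strand): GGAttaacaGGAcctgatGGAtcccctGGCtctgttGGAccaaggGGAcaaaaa
Col6a1 (beaded, exon 9, chr10:76555457-76555510, minus strand): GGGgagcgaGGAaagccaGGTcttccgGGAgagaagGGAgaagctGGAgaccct
Col4a1 (basement membrane, exon 7, chr8:11295211-11295264, minus strand): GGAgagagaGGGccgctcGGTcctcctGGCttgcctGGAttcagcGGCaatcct
Col4a1 with a break in the repeat (exon 15, chr8:11289827-11289877, minus strand): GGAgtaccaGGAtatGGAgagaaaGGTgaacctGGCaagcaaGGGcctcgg
In the last exon, of 51 bases, 1 pair of neighbouring glycine codons is 2 codons apart instead of 3, a break in the repeat of the kind that basement membrane chains are known for.

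The types differed in this structure. Exons of 54 bases made up 47.4% of coding exons in the fibrillar genes (219 of 462) and 44.29% in the cartilage genes (128 of 289). They made up 4.44% in the basement membrane genes, 7.94% in the beaded, 8.86% in the transmembrane and 18.11% in the other genes. At least 20% of coding exons had this length in 16 of 44 members, namely all 8 fibrillar genes, 6 of 7 cartilage genes and 2 others, and in 91 of 21770 protein-coding genes. The exception among the cartilage genes was Col10a1, the network-forming chain of hypertrophic cartilage, with 2 coding exons and none of 54 bases. The longest unbroken run of glycine units had a median of 338 units in the fibrillar genes, with 344 in Col3a1 and 338 in Col1a1. The median of the longest run was 42 units in the basement membrane genes, 45 in the beaded and 43.5 in the transmembrane genes. Col4a1 held 18 separate runs of at least 10 units, the longest of 40 units, whereas Col2a1 held 2 runs, the longest of 339.

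The total of expected counts per library ranged from 3286403 to 35831491. Mitochondrial ribosomal RNA took 9.30 to 32.2% of counts in the short-code and at most 0.196% in the index libraries. Within the short-code libraries it differed with age, at 12.2 to 16.6% at E10.5, 12.3 to 25.2% at E13.5 and 21.8 to 28.4% at E18.5. The E10.5 and E18.5 ranges did not overlap, and its part in the age comparisons was not tested. Counts of 686 to 1108 of 1194 olfactory receptor genes were above 0 in 3 short-code libraries (E11.5 larynx 2, E15.5 larynx 2 and E15.5 trachea 2), against 80 to 319 in the others. Markers of neighbouring tissues moved with age. The summed normalized count of 3 heart muscle markers (Myh6, Nppa, Myl7) was 6178 to 208946 in the 6 E13.5 libraries and 475 to 1079 in the 6 E18.5 short-code libraries, where Nppa was at 0 in all 6. The 3 hepatocyte markers (Alb, Afp, Apoa1) summed to 771 to 35233 at E13.5 and to 0 to 146 at E18.5. The 4 skeletal muscle markers (Myog, Ckm, Acta1, Ttn) summed to 18961 to 97547 at E13.5 and to 754317 to 2013950 at E18.5. In the esophagus, 9 chondrocyte markers summed to 2278 and 2377 at E15.5 but to 7992 and 17704 at E18.5. The esophageal E15.5 index library 2 stood apart with the lowest level of all 40 libraries in 21 members.

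By mean normalized count over 40 libraries, Col3a1, the chain of the thin reticular fibrils, was highest with 70580, followed by Col1a2 with 42570, Col1a1 with 33410, Col2a1 with 32920 and Col4a1 with 15080. Col28a1 was lowest with 30.87, below Col6a4 with 39.31 and Col4a3 with 45.40. Levels per kilobase of exon were divided by the length of all annotated exons of a gene merged. On that scale the first 3 were Col3a1 with a mean level of 6868, Col1a1 with 5087 and Col2a1 with 3519. The lowest level of Col3a1 in any library, 7786 in the E10.5 larynx, was above the highest level of 25 other members.

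**Figure D1:**
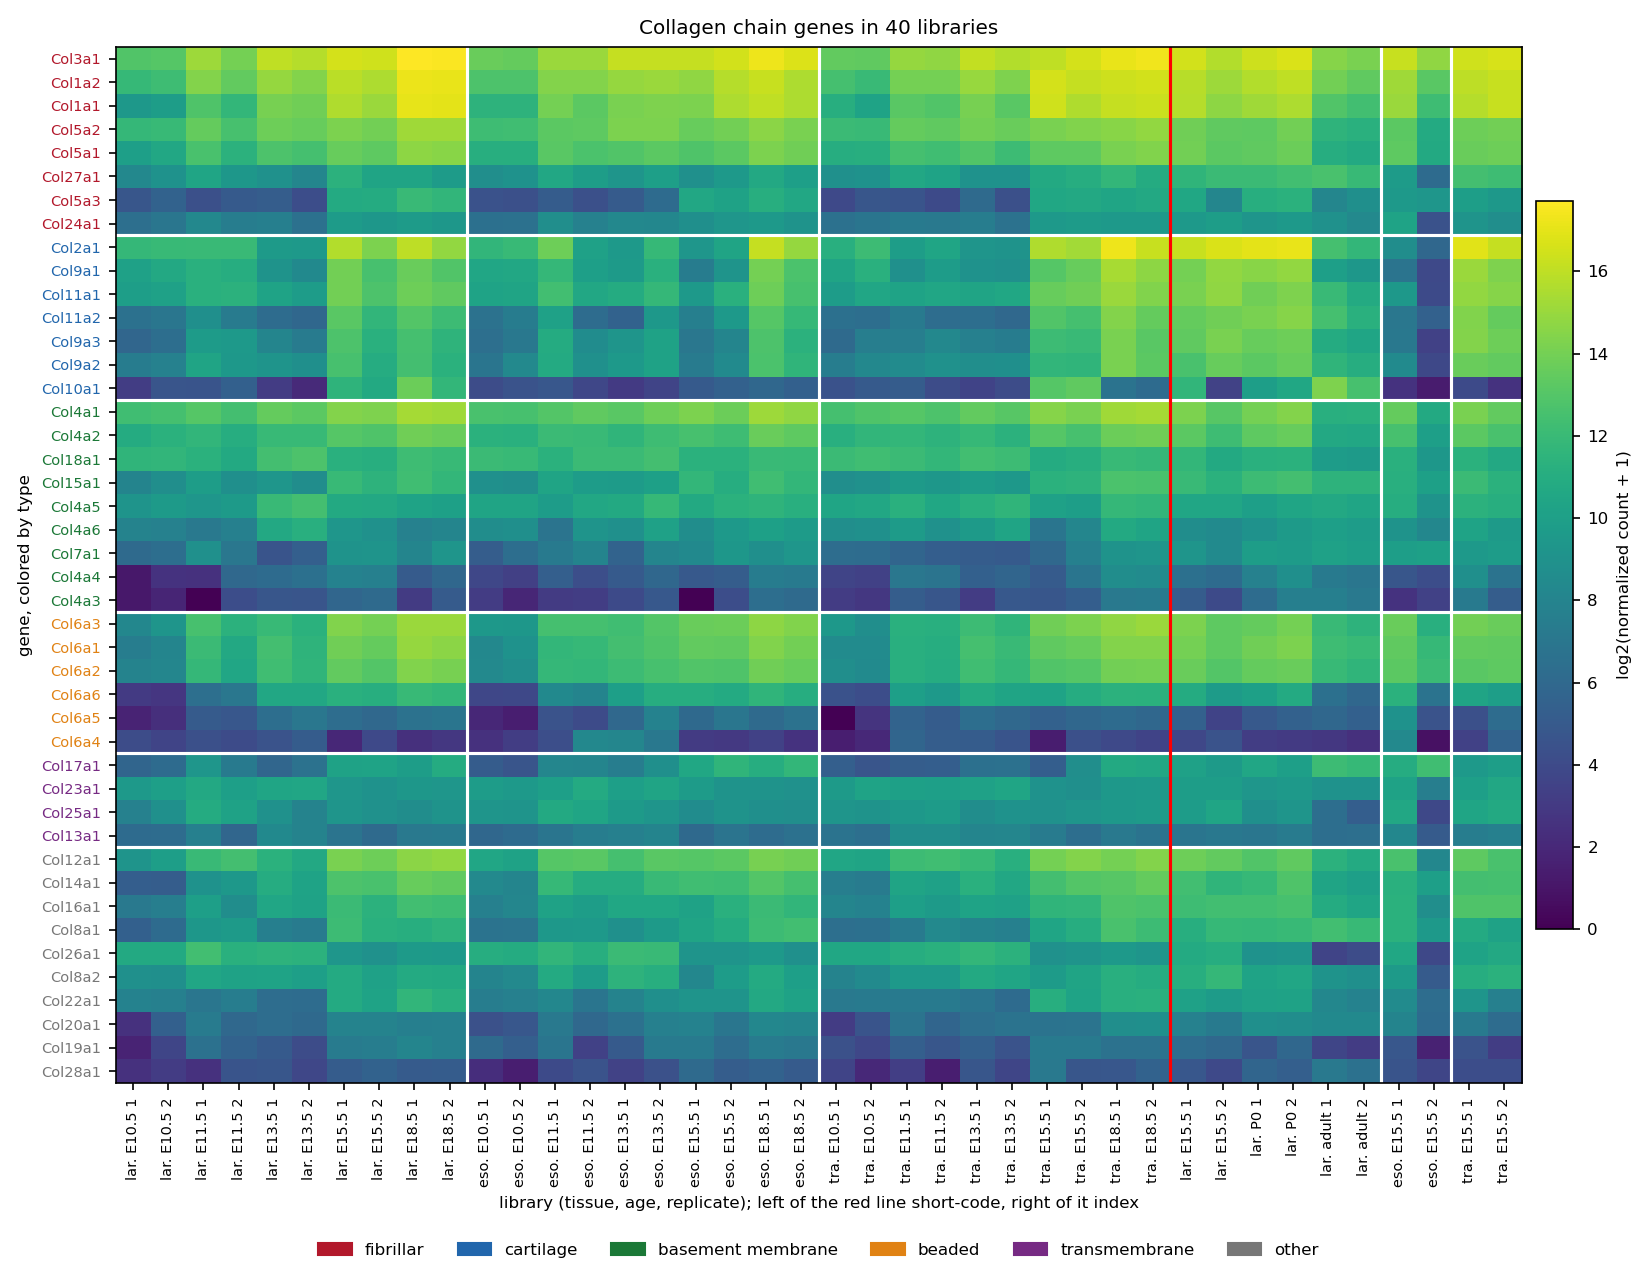
Level of each of the 44 collagen chain genes (rows, grouped and colored by type) in each of the 40 libraries (columns), as log2(normalized count + 1). Columns left of the red line are the 30 short-code libraries by tissue and age, and columns right of it the 10 index libraries; most rows brighten from E10.5 to E18.5 within each tissue.

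Collagen transcripts took a growing share of the counts of nuclear protein-coding genes as the embryo aged. Over the 6 short-code libraries of an age, the share of all members was 0.3045 to 0.4839% at E10.5 (median 0.4255%) and 0.698 to 1.412% at E11.5 (median 1.07%). It was 1.124 to 1.894% at E13.5 (median 1.52%), 1.315 to 3.333% at E15.5 (median 2.697%) and 2.657 to 5.019% at E18.5 (median 4.211%). The ranges of E10.5, E13.5 and E18.5 did not overlap. Of the types, fibrillar chains had the largest median share at the first and last embryonic age, 0.1911% at E10.5 and 2.259% at E18.5. The beaded chains went from a median of 0.009975% to 0.4162% and the basement membrane chains from 0.1164% to 0.3364%. The cartilage share dipped from a median of 0.05203% at E10.5 to 0.02547% at E13.5 and stood at 0.6472% at E18.5. In the larynx index libraries the share of all members was 3.486 and 4.241% at P0 and 0.9044 and 0.6045% in the adult. In tissue pieces, fewer cells of a type and less RNA per cell cannot be told apart.

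**Figure D2:**
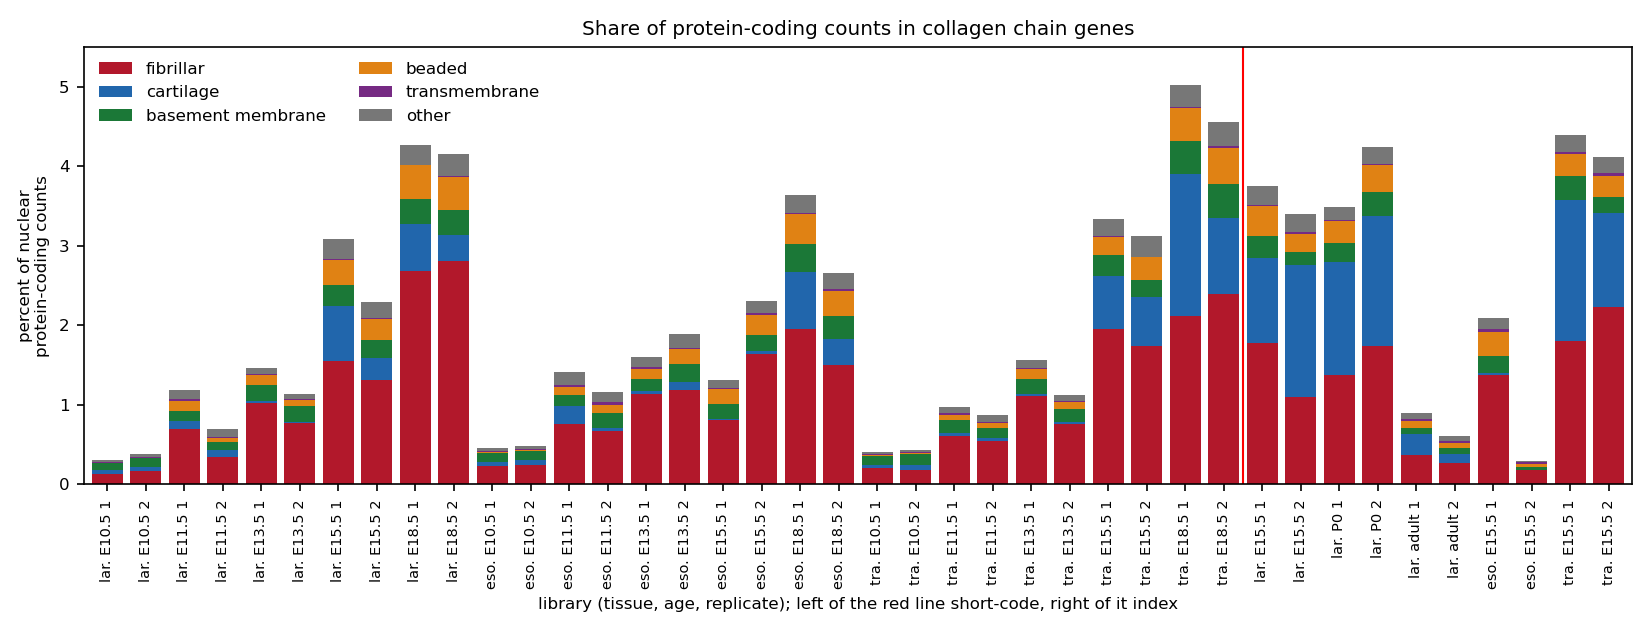
Share of nuclear protein-coding counts (percent, bars from 0) that the collagen chain genes took in each of 40 libraries, stacked by type. The E18.5 libraries hold 2.657 to 5.019% and the E10.5 libraries 0.3045 to 0.4839%; the E15.5 esophageal index library 2 holds 0.2896%.

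The first age comparison asked which chains changed between E10.5 and E13.5, as the mean over the 3 tissues. The transcripts of 28 members rose and of 2 fell (30.2% of all genes tested were called, 13.6% higher and 16.6% lower; edgeR's quasi-likelihood test with Benjamini-Hochberg adjustment, adjusted p under 0.05). The median log2 difference was 1.72 over the members and -0.04 over all genes tested. By type, 5 of 8 fibrillar, 2 of 7 cartilage, 6 of 9 basement membrane, 6 of 6 beaded, 2 of 4 transmembrane and 7 of 10 other chains rose, and the 2 that fell were cartilage chains. Between E13.5 and E18.5, 32 members rose and 4 fell (24.8% of all genes tested, 13.9% higher and 10.9% lower), with a median of 1.86 over the members and 0.00 over all genes. Here all 8 fibrillar and all 7 cartilage chains rose, together with 6 of 9 basement membrane, 3 of 6 beaded, 1 of 4 transmembrane and 7 of 10 other chains. The 4 that fell were Col6a4, Col13a1, Col23a1 and Col26a1. Both comparisons share the E13.5 libraries. With E15.5 short-code libraries in place of E13.5, an alternative chosen after seeing the data, 36 members rose and 3 fell from E10.5 (33.8% of all genes called). From E15.5 to E18.5 11 rose and none fell (2.9% of all genes called), and 10 of the 36 calls were kept. Without the esophagus, 21 were higher and 4 lower at E13.5 than at E10.5 (23.7% called), and 30 rose and 4 fell from E13.5 to E18.5 (19% called).

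**Figure D3:**
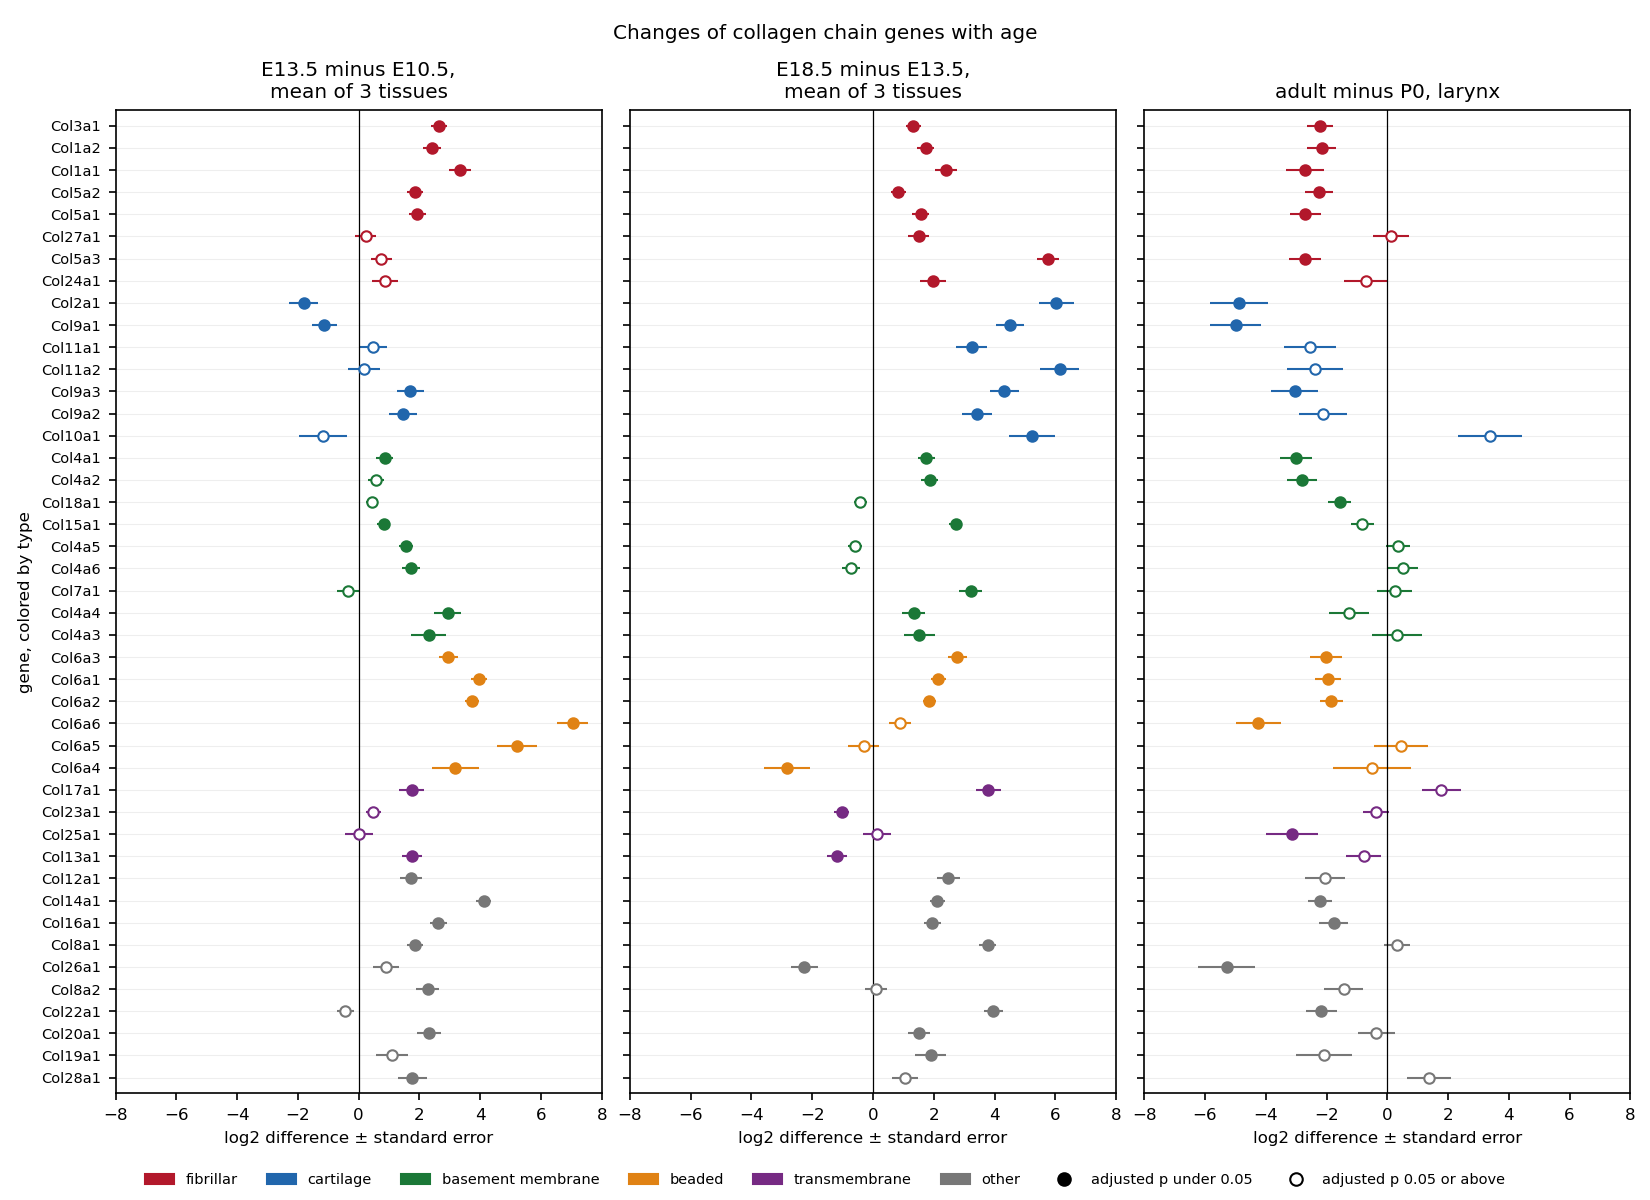
Log2 difference ± standard error of each collagen chain gene (rows, colored by type) from E10.5 to E13.5, from E13.5 to E18.5 (both the mean of 3 tissues) and from P0 to adult in the larynx. Filled points have an adjusted p under 0.05; in the middle plot all 7 cartilage chains lie right of 0, and in the right plot all 21 filled points lie left of it.

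Col1a1 and Col1a2 encode the chains of collagen I, the main fibril of connective tissue and bone. Over the 6 short-code libraries of an age, Col1a1 was at 692 to 2842 (median 1726) normalized counts at E10.5, 3458 to 16826 (median 8497) at E11.5 and 9243 to 20169.8 (median 17166) at E13.5. It was at 19551 to 87758 (median 47944) at E15.5 and 47484 to 137356 (median 78397) at E18.5. The ranges of E10.5, E13.5 and E18.5 did not overlap, and the larynx held both the lowest E10.5 and the highest E18.5 library. Col1a1 rose by 3.34 ± 0.37 (log2, SE; adjusted p = 7.59e-08) from E10.5 to E13.5 and by 2.402 ± 0.354 (adjusted p = 6.39e-06) from E13.5 to E18.5. Col1a2 was at 3811 to 7016 (median 5380.3) at E10.5, 20467 to 33274 (median 31006) at E13.5 and 48560.4 to 147274 (median 90166) at E18.5, again with no overlap. Its rises were 2.42 ± 0.29 (adjusted p = 2.35e-07) and 1.73 ± 0.28 (adjusted p = 2.17e-05). Col3a1 was at 7786 to 12937 (median 10933) at E10.5, 53704 to 72480.2 (median 68828) at E13.5 and 115114 to 216078 (median 161551) at E18.5. The ranges of these ages did not overlap, while that of E15.5, 68049 to 97739, overlapped with E13.5. Col3a1 rose by 2.65 ± 0.26 (adjusted p = 8.26e-09) and 1.33 ± 0.25 (adjusted p = 0.000123).

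Collagen V chains sit in the core of collagen I fibrils and limit their width. Col5a1 and Col5a2 rose by 1.93 and 1.84 on the log2 scale to E13.5 and by 1.57 and 0.84 to E18.5, where the E13.5 and E18.5 ranges of Col5a2 overlapped. Col5a3 was at 14 to 46.8 (median 23.1) at E10.5, 14.9 to 34.9 (median 20.9) at E11.5 and 17.3 to 73.8 (median 34.6) at E13.5. It then stood at 1208 to 1892 (median 1603) at E15.5 and 1389 to 4214 (median 1915) at E18.5, so that every library up to E13.5 was far below every later short-code library. The difference was 5.75 ± 0.36 (adjusted p = 1.41e-11) from E13.5 to E18.5, after 0.74 ± 0.35 (adjusted p = 0.115) from E10.5. In the 6 E15.5 index libraries Col5a3 was lower than in the short-code libraries of that age by 1.00 ± 0.29 (log2; adjusted p = 0.00976). Col24a1 and Col27a1, fibrillar chains with shorter helices, were not called from E10.5 to E13.5 (log2 differences 0.86 and 0.23) and rose by 1.96 and 1.502 from E13.5 to E18.5.

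Collagen VI, the microfibril around cells, rose in all 6 chains from E10.5 to E13.5. Col6a1 was at 184 to 521 (median 335) at E10.5, 1682 to 4395 (median 2892) at E11.5, 2923 to 7497 (median 5383) at E13.5, 10564 to 15133 (median 11658) at E15.5 and 15931 to 30769 (median 22102) at E18.5. No 2 of its ranges at E10.5, E13.5, E15.5, E18.5 overlapped, and its partner Col6a2 went the same way, with medians of 343, 4765 and 16096 at E10.5, E13.5 and E18.5. Col6a1 rose by 3.97 ± 0.27 (adjusted p = 1.57e-11) and 2.15 ± 0.25 (adjusted p = 1.82e-07), and Col6a2 by 3.72 ± 0.23 (adjusted p = 2.58e-12) and 1.86 ± 0.21 (adjusted p = 1.59e-07). Col6a3, the long chain that joins them in the heterotrimer, was at 292 to 709.6 (median 641) at E10.5, 2495 to 8050.3 (median 4261) at E13.5 and 20985 to 34492 (median 30866) at E18.5. It rose by 2.94 ± 0.31 (adjusted p = 4.02e-08) and 2.77 ± 0.31 (adjusted p = 1.05e-07).

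Col6a4, Col6a5 and Col6a6, which resemble Col6a3 and lie together on chromosome 9, are the 3 further chains of collagen VI. Col6a6 was at 6.06 to 21 (median 13.2) at E10.5, 85.7 to 1043 (median 294) at E11.5, 1046 to 2136 (median 1601) at E13.5 and 2082 to 4013 (median 2881) at E18.5. Its rise to E13.5, 7.05 ± 0.51 (adjusted p = 4.51e-11), was the largest of the 44 members, and the later difference of 0.89 ± 0.37 (adjusted p = 0.0849) was not called. Col6a5 rose by 5.20 ± 0.66 (adjusted p = 6.21e-07), from 2.801 to 108.6 normalized counts, and its later difference was -0.30 (adjusted p = 0.981). Col6a4 was at 1.75 to 16.5 (median 6.55) at E10.5, 22.2 to 284 (median 34.6) at E13.5 and 4.37 to 13.7 (median 8.02) at E18.5. Its highest values were in the esophagus, 284 and 138 at E13.5, 303 in E11.5 library 2 and 320.4 in E15.5 index library 1, and the E10.5 and E18.5 ranges overlapped. It rose by 3.18 ± 0.77 (adjusted p = 0.00208) and then fell by 2.82 ± 0.76 (adjusted p = 0.00589).

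**Figure D4:**
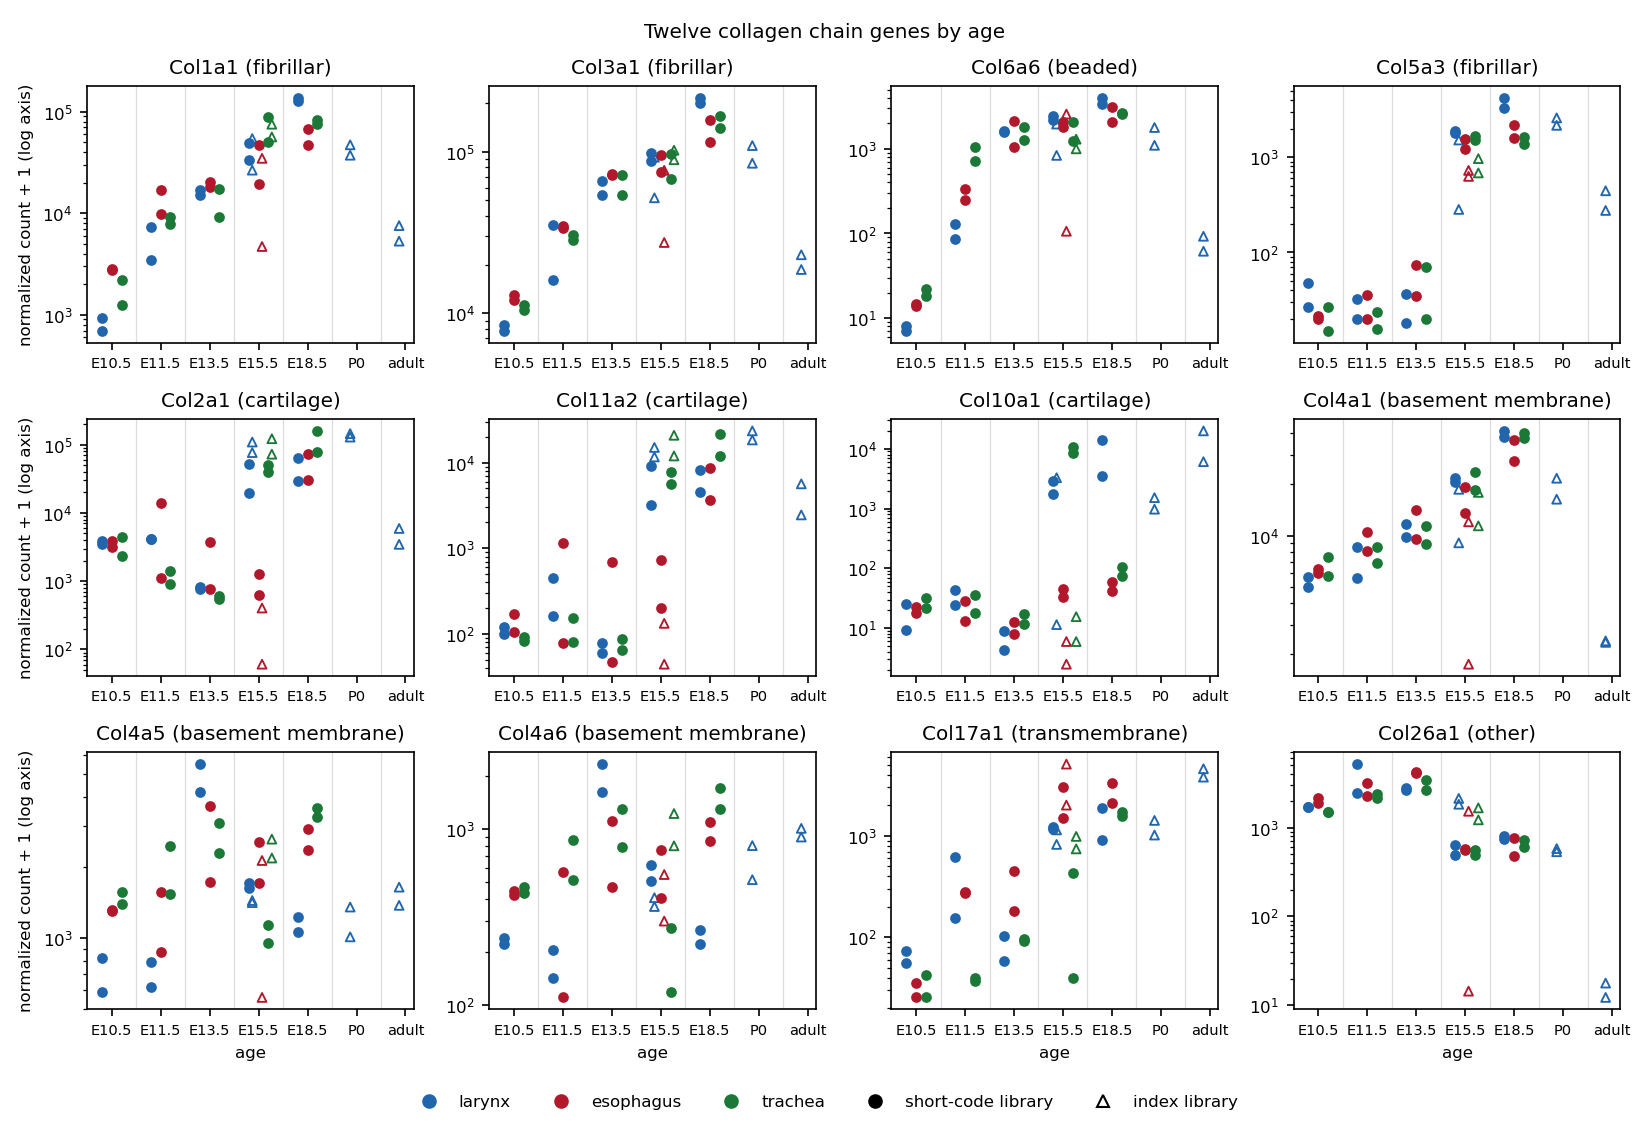
Normalized count + 1 (log axis) of 12 collagen chain genes by age in 40 libraries. Colors mark tissue, filled circles short-code and open triangles index libraries; Col5a3 steps up between E13.5 and E15.5, and Col26a1 in the short-code libraries steps down at the same ages.

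Of the cartilage chains, 2 fell and 2 rose to E13.5, and all 7 rose from E13.5 to E18.5. Col2a1 encodes the main fibril of cartilage. In the larynx it was at 3511 and 3839 at E10.5, 4114 and 4132 at E11.5, 808 and 777 at E13.5, 51843 and 19607 at E15.5 and 63804 and 29799.9 at E18.5. In the trachea it was at 2312 and 4491, 922 and 1391, 609 and 538, 51055 and 39772 and 158929.9 and 77938 at these ages. In the esophagus it was at 3208 and 3926, 14072 and 1118, 764 and 3739, 628 and 1279 and 73793 and 30677. The larynx and trachea were therefore high in both libraries from E15.5 on. The esophagus held 14072 in E11.5 library 1 but was high in both libraries only at E18.5, when its 9 chondrocyte markers were also high. The part of those markers' cells in the result was not tested. As the mean of the tissues, Col2a1 fell by 1.81 ± 0.48 (adjusted p = 0.00456) to E13.5, with overlapping ranges, and rose by 6.04 ± 0.58 (adjusted p = 8.61e-09) to E18.5. With E15.5 in place of E13.5 the first difference turned to 1.71 (adjusted p = 0.00546).

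Col9a1, a chain of the collagen IX that decorates cartilage fibrils, was at 1153 to 2379.8 (median 1479) at E10.5, 339.6 to 2427 (median 532) at E13.5, 174 to 15862 (median 7228) at E15.5 and 6633 to 43308 (median 14724) at E18.5. It fell by 1.14 ± 0.41 (adjusted p = 0.0348) to E13.5 and rose by 4.50 ± 0.47 (adjusted p = 2.86e-08) to E18.5. The fall was called in 4 of 12 refits that left out 1 library each, with an adjusted p of up to 0.121, and with E15.5 in place of E13.5 it turned to a rise of 1.17 (adjusted p = 0.0254). Its partners Col9a2 and Col9a3 went the other way early, rising by 1.46 ± 0.45 (adjusted p = 0.0148) and 1.70 ± 0.44 (adjusted p = 0.00397) to E13.5. The Col9a2 rise was not called without esophagus E10.5 library 1 or without trachea E10.5 library 1. Col11a2, a chain of the collagen XI in the core of cartilage fibrils, was at 45.6 to 684 (median 70.2) at E13.5, 202 to 9198 (median 4417) at E15.5 and 3659 to 21726 (median 8380.3) at E18.5. The E13.5 and E18.5 libraries did not overlap, and Col11a2 rose by 6.14 ± 0.64 (adjusted p = 2.99e-08), the largest rise of the 44 members between these ages. From E10.5 to E13.5 its difference was 0.17 ± 0.53 (adjusted p = 1).

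Col10a1 marks hypertrophic cartilage, the stage before mineralization, and its level differed widely between libraries of the later ages. It was at 42.3 or less in all 18 short-code libraries from E10.5 to E13.5. In the larynx it stood at 2885 and 1767 at E15.5 and 14013 and 3486 at E18.5. In the trachea it stood at 8615 and 10859 at E15.5 but at 105 and 73 at E18.5, and the esophagus stayed at 31.8 and 43.5 and 59 and 41.5. Among the E15.5 index libraries, larynx 1 held 3275 and the other 5 held 14.5 or less. The short-code tracheal libraries of E15.5 were thus high and the index ones of the same tissue and age low. The 5 osteoblast markers (Sp7, Bglap, Ibsp, Alpl, Runx2) summed to 5993 and 7613 in the short-code trachea and 5448 and 5509 in the E18.5 larynx. They summed to 323 and 362 in the index trachea and 449.9 and 784 in the E18.5 trachea, and their part in the result was not tested. Col10a1 was lower in index than in short-code libraries by 4.62 ± 0.70 (log2; adjusted p = 1.15e-05). Its rise from E13.5 to E18.5, 5.24 ± 0.76 (adjusted p = 4.8e-06), turned to -1.49 (adjusted p = 0.197) with E15.5 in place of E13.5.

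Col4a1 and Col4a2 encode the pair of chains found in nearly every basement membrane. Col4a1 was at 4966 to 7502 (median 5923) at E10.5, 8893 to 14192 (median 10617) at E13.5, 13654 to 23682 (median 19934) at E15.5 and 27461 to 41308 (median 37937) at E18.5, and Col4a2 at 1932 to 3192 (median 2503), 2617 to 4809 (median 3817), 4832 to 8554 (median 6742) and 10125 to 15204 (median 13568). Every E18.5 library was above every E15.5 library for both chains. The early rise of Col4a1 was 0.85 ± 0.28 (adjusted p = 0.0221), called in 6 of 12 refits that left out 1 library, and the difference of Col4a2 was 0.56 ± 0.26 (adjusted p = 0.116). From E13.5 to E18.5 they rose by 1.75 ± 0.29 (adjusted p = 2.92e-05) and 1.86 ± 0.27 (adjusted p = 4.92e-06). Col4a3 and Col4a4, chains of the mature membranes of kidney and lung, were low, with Col4a3 at 1.18 to 7.88 (median 4.58) at E10.5, 7.67 to 28.5 (median 25.5) at E13.5 and 7.29 to 159.7 (median 75.8) at E18.5. Col4a3 rose by 2.30 ± 0.58 (adjusted p = 0.00312) and 1.52 ± 0.51 (adjusted p = 0.028). Its second rise was called in 5 of 12 refits that left out 1 library.

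Col4a5 and Col4a6, the X-linked chains of epithelial and smooth muscle basement membranes, were lower in the larynx at E18.5 than at E13.5. In the larynx, Col4a5 was at 589 and 817 at E10.5, 4193 and 5493 at E13.5, 1714 and 1625 at E15.5 and 1225 and 1059.6 at E18.5. Col4a6 was at 239 and 222, 1626 and 2327, 627 and 505 and 222 and 267 at the same ages. Among the short-code ages listed, both were highest at E13.5. In the trachea Col4a6 was at 789 and 1297 at E13.5, 118 and 274 at E15.5 and 1713 and 1291 at E18.5. Tracheal Col4a5 was at 2290 and 3086, 1131 and 955 and 3584 and 3286 at these ages. Both genes were thus lower at E15.5 than at E13.5 in the trachea as well, and higher again at E18.5. In the esophagus Col4a6 was at 470.1 and 1102, 404 and 761 and 1091 and 854. From E13.5 to E18.5 in the larynx, Col4a5 fell by 2.08 ± 0.41 (adjusted p = 0.00123) and Col4a6 by 3.02 ± 0.54 (adjusted p = 0.000438), and both calls held in all 4 refits that left out 1 of these libraries. As the mean of 3 tissues the differences were -0.59 (adjusted p = 0.0593) and -0.73 (adjusted p = 0.0663). The difference of this change between larynx and trachea was -3.54 ± 0.72 for Col4a6 (adjusted p = 0.134) and -2.44 ± 0.56 for Col4a5 (adjusted p = 0.238), so that it was not called. Heart muscle markers were at their highest in the E13.5 larynx, at 108498 and 208946, and their part in this result was not tested.

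These genes lie head to head on the X chromosome, 1281 bases apart in GRCm39, and the 250 bases before each start are shown because both genes are transcribed outward from this stretch. The sequences are from RefSeq (GRCm38.p6), 5′ to 3′ on the strand of each gene, and capitals mark a CCAAT box or a GC box. A GC box is the run GGGCGG, and both motifs were searched on either strand, so that on the lower strand a GC box reads CCGCCC.
Col4a5 (chrX:141475169-141475418, plus strand): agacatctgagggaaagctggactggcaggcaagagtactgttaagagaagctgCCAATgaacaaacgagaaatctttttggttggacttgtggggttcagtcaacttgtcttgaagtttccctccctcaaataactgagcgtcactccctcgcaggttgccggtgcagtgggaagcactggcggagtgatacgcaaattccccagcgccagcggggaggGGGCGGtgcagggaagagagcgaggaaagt
Col4a6 (chrX:141474077-141474326, minus strand): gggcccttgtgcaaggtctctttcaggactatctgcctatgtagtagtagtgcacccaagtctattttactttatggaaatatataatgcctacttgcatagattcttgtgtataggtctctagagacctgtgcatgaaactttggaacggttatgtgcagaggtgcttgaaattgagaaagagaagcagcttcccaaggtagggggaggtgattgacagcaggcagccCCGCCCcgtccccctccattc
The Col4a5 window held 1 CCAAT and 1 GGGCGG, the Col4a6 window 1 GGGCGG and no CCAAT, and neither held TATAAA on either strand. Over the promoters in the table, 35 members had 38 windows, of which 13 held CCAAT (34.2%, against 33.8% of all 32851 windows), 22 held GGGCGG (57.9% against 32.7%) and 5 held TATAAA (13.2% against 12.4%). Motif matches describe the letters in a window and were not tested as sites.

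Of the remaining basement membrane chains, Col7a1, the anchoring fibril under stratified epithelium, was at 37.2 to 84 (median 77.3) at E10.5, 23.8 to 271 (median 37.7) at E13.5, 61.6 to 681 (median 442) at E15.5 and 265 to 634 (median 571) at E18.5. It rose by 3.22 ± 0.37 (adjusted p = 1.88e-07) to E18.5, with overlapping ranges because 1 E13.5 esophageal library held 271. Col15a1, found around muscle and vessels, rose by 0.82 ± 0.22 (adjusted p = 0.00464) and 2.72 ± 0.23 (adjusted p = 1.11e-09). Col18a1, the source of endostatin, was not called in either comparison, with differences of 0.44 (adjusted p = 0.13) and -0.41 (adjusted p = 0.184).

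Col17a1 anchors basal epithelial cells in hemidesmosomes. In the esophagus it was at 34.3 and 24.6 at E10.5, 183 and 453 at E13.5, 1511 and 3021 at E15.5 and 2103 and 3351 at E18.5. In the trachea it was at 41.1 and 24.6, 91.3 and 94.5, 38.9 and 426 and 1709 and 1573, and in the larynx at 54.3 and 71.8, 57.1 and 102, 1175 and 1215 and 916 and 1896. It was therefore higher in both esophageal than in both tracheal libraries at each age from E13.5 on. Over the 3 tissues it rose by 1.74 ± 0.40 (adjusted p = 0.00136) and 3.80 ± 0.40 (adjusted p = 4.09e-08). The other transmembrane chains are known from neurons, muscle and other cells. Col23a1 was at 751 to 1223 (median 847) at E10.5, 1043 to 1412 (median 1348) at E13.5, 451 to 827 (median 541) at E15.5 and 504 to 716 (median 644) at E18.5, and fell by 1.02 ± 0.25 (adjusted p = 0.0026) from E13.5 to E18.5. Col13a1 rose by 1.75 ± 0.34 (adjusted p = 0.000215) and then fell by 1.18 ± 0.33 (adjusted p = 0.00843). Both falls turned to 0.11 and 0.19 (adjusted p = 1 for each) when E15.5 stood in place of E13.5. Col25a1 did not pass the test in either comparison or in the time course of the 3 tissues (adjusted p = 0.577).

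Among the other chains, Col12a1 and Col14a1 bind to the surface of collagen I fibrils. Col12a1 was at 566 to 1432 (median 1254) at E10.5, 4186 to 9291 (median 5227) at E11.5, 1695 to 9109 (median 3244) at E13.5 and 14743 to 28930.2 (median 19982) at E18.5. Col14a1 was at 37.2 to 324 (median 176), 519 to 3804 (median 1221), 1259 to 4162 (median 2003) and 5748 to 12441 (median 9784) at these ages. Both had E18.5 ranges above their E13.5 ranges. Col14a1 rose by 4.11 ± 0.26 (adjusted p = 2.78e-12) and 2.12 ± 0.23 (adjusted p = 7.4e-08). Col12a1 rose by 1.72 ± 0.37 (adjusted p = 0.000654) and 2.48 ± 0.38 (adjusted p = 1.04e-05). Col22a1, a chain of tissue junctions such as the one between muscle and tendon, rose from 172.8 to 2213 between E13.5 and E18.5, by 3.96 ± 0.32 (adjusted p = 4.59e-10), while the skeletal muscle markers given above were also higher, and their part in the result was not tested.

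Col8a1 and Col8a2 are the network chains of collagen VIII. Col8a1 was at 164 to 789.6 (median 228) at E13.5 and 2189 to 6202 (median 4575) at E18.5 and rose by 3.77 ± 0.27 (adjusted p = 1.09e-10). Col8a2 was at 1001 to 2757 (median 1574) and 1045 to 2326 (median 1837), a difference of 0.10 ± 0.37 (adjusted p = 1). Col26a1 was at 1481 to 2138 (median 1711) at E10.5, 2131 to 5176 (median 2411) at E11.5, 2674 to 4226 (median 3083) at E13.5, 487 to 639 (median 564) at E15.5 and 481 to 809 (median 729.8) at E18.5. All 18 libraries up to E13.5 were thus above all 12 later short-code libraries, and it fell by 2.26 ± 0.45 (adjusted p = 0.000273) from E13.5 to E18.5. With E15.5 in place of E13.5 the difference was 0.30 (adjusted p = 1). Of the E15.5 index libraries, 5 of 6 did not share the low level of the short-code ones, with 1829 and 2128 in the larynx, 1220 and 1663 in the trachea and 1525 and 13.4 in the esophagus, where library 2 was below every short-code library of that age. Col26a1 was higher in index libraries by 1.24 ± 0.43 (adjusted p = 0.0344), which turned to -0.71 without esophageal index library 1.

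The age comparisons were also run in each tissue. From E10.5 to E13.5, 18 members rose and 1 fell in the larynx (13.6% of all genes called, 7.9% higher and 5.71% lower). In the esophagus 19 rose (7.41% called, 4.8% higher) and in the trachea 14 (8.06% called, 3.94% higher), with no fall. The laryngeal fall was that of Col22a1 (-1.54 ± 0.51, adjusted p = 0.0437). From E13.5 to E18.5, 28 rose and 2 fell in the larynx (8.55% called, 5.45% higher and 3.1% lower). In the esophagus 13 rose and 2 fell (10.1% called, 6.14% higher and 3.92% lower), and in the trachea 29 rose (10.8% called, 6.43% higher). The laryngeal falls were Col4a5 and Col4a6 and the esophageal ones Col6a4 and Col26a1. Counts moved with single libraries. The counts without 1 library that follow carry no share of all genes called, so they cannot be set against all genes. In the esophagus the early count was 10 without E10.5 library 1 and 8 without E10.5 library 2, and the late count was 3 without E13.5 library 1 and 5 without E18.5 library 1. The early tracheal count was 9 without E10.5 library 1 and 7 without E10.5 library 2, the late tracheal count 17 without E13.5 library 2, and the late laryngeal count 18 without E13.5 library 2. In the comparisons over 3 tissues, 27 of 30 calls and 35 of 36 calls held in every refit that left out 1 library.

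A smooth time course, a natural spline on the rank of age tested against a constant level at an adjusted p of at most 0.01, was called for 38 members over the 36 embryonic libraries (34.4% of all genes called). The lowest adjusted p were those of Col6a2 (3.35e-16), Col5a3 (3.9e-16) and Col6a1 (2.1e-15). The 6 not called were Col4a5, Col4a6, Col18a1, Col19a1, Col25a1 and Col27a1. Within tissues 37 members were called in the larynx, where the course runs to the adult (26.1%), 28 in the trachea (11.4%) and 11 in the esophagus (5.87%). The esophageal count was 29 without E15.5 index library 2 and 1 without either E10.5 library. It was 5 without either E13.5 library, either E18.5 library or E15.5 short-code library 2, 6 without E15.5 short-code library 1 and 7 without E11.5 library 2, and with short-code libraries only it was 28. The laryngeal count was 21 with short-code libraries only, which leave out P0 and adult. These 2 ages exist only as index libraries and the spline had no term for the kind of library. In the laryngeal course late age and kind of library therefore cannot be told apart. The counts without 1 library or with short-code libraries only carry no share of all genes called.

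The organs were compared as the mean over the 3 ages from E13.5 on, after they have separated, in short-code libraries. Col17a1 was lower in trachea than in esophagus by 1.93 ± 0.37 (adjusted p = 0.0491; 0.0521% of all genes were called, 0.0329% lower), and it was the only member called. The call held in 4 of 12 refits that left out 1 library, and was lost without E13.5 library 1 or 2 or E18.5 library 1 or 2 of the trachea and without E13.5 library 2, E15.5 library 1 or 2 or E18.5 library 2 of the esophagus (adjusted p up to 0.256). It was also lost with the replicate number as a block (adjusted p = 0.0715), with a filter at 10 normalized counts and with both kinds of library pooled at E15.5. Without esophageal E13.5 library 1 or tracheal E15.5 library 2 the count was 2. At an unadjusted p under 0.05 there were 9 members, and DESeq2 called 5. The summed basal epithelium markers (Krt5, Krt15, Trp63, Krt14) were 22028 and 34650 in the E15.5 esophagus, against 66.5 and 4665 in the E15.5 trachea, and their part in this result was not tested. Between larynx and esophagus no member was called (0.00274% of all genes; 7 at an unadjusted p under 0.05, 1 by DESeq2), and none between larynx and trachea (0% of all genes; 0 unadjusted, 0 by DESeq2). The test of whether the change from E13.5 to E18.5 differed called none between trachea and esophagus (0%; 10 unadjusted, 0 by DESeq2). It called none between larynx and esophagus (0.00822%; 14 unadjusted, 3 by DESeq2) or between larynx and trachea (0%; 6 unadjusted, 4 by DESeq2). The shares of all genes given for these comparisons are those of the adjusted edgeR calls with all libraries. None is given for the unadjusted, DESeq2 or refit counts, which therefore cannot be set against all genes.

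At E15.5 alone, a comparison added after seeing the data, the airway organs and the esophagus differed in their cartilage chains. These counts moved with single libraries. In short-code libraries trachea was above esophagus in Col10a1 (7.99 ± 1.33, adjusted p = 0.00691), Col2a1 (5.57 ± 0.98, adjusted p = 0.00877), Col9a1, Col9a2 and Col9a3, and below it in Col17a1 (-3.28 ± 0.68, adjusted p = 0.0272), which made 6 members (0.581% of all genes called). Larynx was above esophagus in 3, Col2a1 (5.23 ± 0.97, adjusted p = 0.0384), Col9a1 and Col9a3 (0.0329%). Neither comparison called a member without either of the esophageal short-code libraries (0.0439 and 0.0274% of all genes for trachea, 0 and 0.00548% for larynx), and without laryngeal library 1 the larynx count was 0 (0.00275%). In the index libraries of the same age, trachea was above esophagus in 13 members and below it in Col17a1 (9.08%). Col2a1 differed there by 8.71 ± 1.13 (adjusted p = 6.07e-05), with 121944 and 72398 in the trachea and 403 and 59.7 in the esophagus, and Col17a1 by -2.04 ± 0.64 (adjusted p = 0.0423). Larynx was above esophagus in 12 and below it in Col6a5 (5.67%). The index esophageal library 2, which stood apart in its collagen share, moved with these counts. Without it trachea was above esophagus in 9 members and below it in 2 (3.08%), and larynx above esophagus in 7 and below it in 1 (0.266%). Without esophageal index library 1, which leaves library 2 alone, 35 were higher and 1 lower in each comparison (27.6 and 27.2%). The trachea count was 9 without tracheal index library 1 (2.75%), and the larynx count was 7 without either laryngeal index library (0.565 and 0.17%). In all 4 refits of each comparison Col2a1, Col9a1, Col9a2, Col9a3, Col11a1 and Col11a2 were called higher in the airway organ, while the calls of Col17a1 and Col6a5 were lost in 3 of 4. The Col6a5 difference turned to 0.32 without esophageal index library 1. The sum of 9 chondrocyte markers was 10641 and 23439 in the larynx, 19031 and 23742 in the trachea and 2278 and 2377 in the esophagus in short-code libraries, and 912 and 1423 in the index esophagus. No member was called between larynx and trachea in either kind (0.00274% and 0% of all genes), and the count was 2 without tracheal short-code library 2 and 1 without laryngeal index library 2.

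Ratios of partner chains were taken from counts per kilobase of exon, with all annotated exons of a gene merged. The merged length was 6567 bases for Col1a1 and 12650 for Col1a2, and 5847 for Col6a1 and 10998 for Col6a2. Whether a ratio lies above or below 1 therefore depends on the annotation as well. Values at P0 and in the adult are from index libraries. Those of the embryonic ages are from short-code libraries unless stated. Collagen I is usually built from more Col1a1 than Col1a2 chains. The ratio of Col1a1 to Col1a2 was 0.35 to 0.785 in the 6 libraries of E10.5, 0.87 to 1.29 at E13.5 and 1.67 to 1.88 at E18.5. In the larynx it was 1.37 and 1.36 at P0 and 0.909 and 0.964 in the adult. With these lengths the E10.5 libraries all lay below 1 and the E18.5 libraries above it. In normalized counts, not divided by length, Col1a1 was below Col1a2 in every E18.5 library. In the E18.5 larynx these counts were 137356 and 128437 for Col1a1 and 147274 and 145178 for Col1a2. The ratio of Col3a1 to Col1a1 went the other way, from 2.77 to 7.19 at E10.5 to 0.989 to 1.55 at E18.5, and was 1.95 and 2.25 in the adult larynx. Col6a1 to Col6a2 was 1.44 to 2.22 at E10.5 and 2.38 to 2.74 at E18.5, with no overlap. Col11a2 to Col11a1 was 0.0417 to 0.33 at E13.5 and 0.718 to 1.12 at E18.5. In the larynx it was 2.14 and 2 at P0 and 2.34 and 2.3 in the adult. Col8a1 to Col8a2 was 0.0882 to 0.226 at E13.5, 0.764 to 3.2 at E18.5 and 6.26 and 5.65 in the adult. In the E15.5 larynx this ratio differed between kinds of library, with 1.62 and 1.39 in short-code and 0.633 and 0.67 in index libraries. In the E15.5 trachea it was 1.00 and 1.03 in short-code and 0.55 and 0.31 in index libraries. In the E15.5 esophagus the kinds overlapped, with 2.86 and 1.39 in short-code and 2.06 and 13.9 in index libraries. A difference between P0 or adult ratios and those of short-code ages therefore cannot be told apart from the kind of library. The ratio of Col4a1 to Col4a2 was 2.46 to 3 in short-code and 1.62 to 1.91 in index libraries of E15.5, with no overlap.

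**Figure D5:**
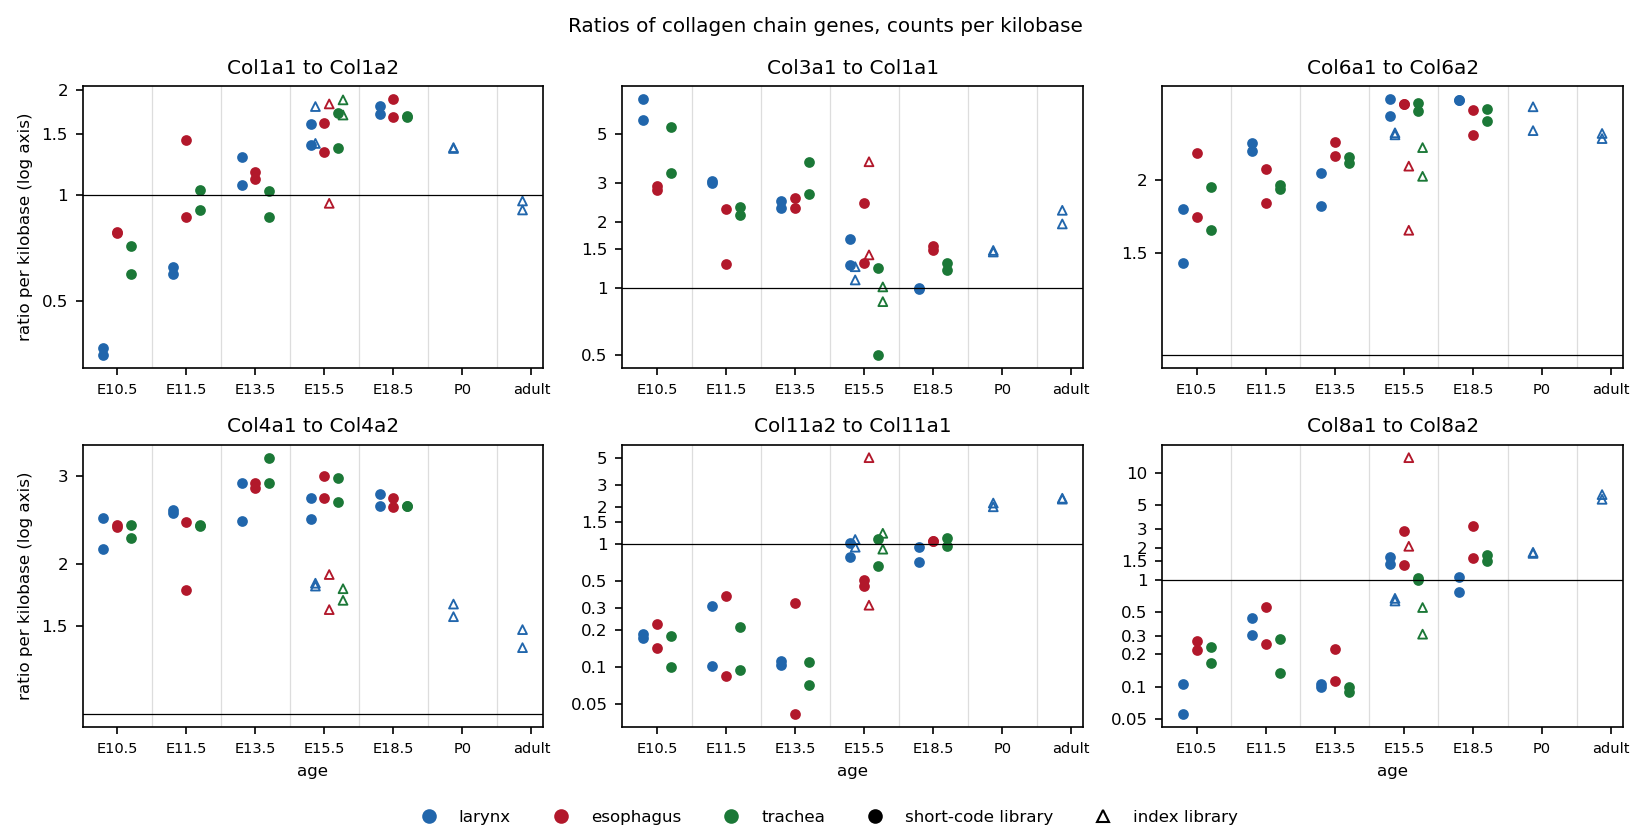
Ratio of 6 pairs of collagen chain genes by age in 40 libraries, from counts per kilobase of exon (log axis), with a line at 1. Colors mark tissue and open triangles index libraries. With merged annotated exon lengths as divisors, Col1a1 to Col1a2 lies below 1 in all E10.5 and above 1 in all E18.5 libraries.

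The larynx was followed past birth in index libraries only. Shares of all genes are given here for the adjusted edgeR calls with all libraries, not for unadjusted, DESeq2 or refit counts. From E15.5 to P0 no member was called (0.559% of all genes; 4 members at an unadjusted p under 0.05, 2 by DESeq2), and without E15.5 index library 1 the count was 2. From P0 to adult 21 members fell and none rose (4.13% of all genes called, 2.04% lower), with a median log2 difference of -1.99 over the members and 0.00 over all genes. Col2a1 was at 128891 and 144808 at P0 and 5908 and 3459.7 in the adult, a fall of 4.87 ± 0.95 (adjusted p = 0.00273). Col9a1 was at 24814 and 29499 and 1036 and 668 and fell by 5.00 ± 0.83 (adjusted p = 0.000611). Col26a1 was at 534 and 579 and 11.3 and 16.8 and fell by 5.29 ± 0.94 (adjusted p = 0.00122), the largest fall of the members. The sum of the 9 chondrocyte markers, 25317 and 28491 at P0 and 12562 and 28797 in the adult, overlapped between the ages, and none of the 9 was called. The basal epithelium markers summed to 16897 and 30329.7 at P0 and 94186 and 104408 in the adult, and their part in these falls was not tested.

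Of the fibrillar chains, Col1a1 was at 37259.6 and 47144 at P0 and 7549 and 5309.6 in the adult, Col1a2 at 52461 and 66764 and 16004 and 10612, and Col3a1 at 84897 and 109188 and 23049.6 and 18689.7. They fell by 2.71 ± 0.62, 2.16 ± 0.49 and 2.22 ± 0.44 (adjusted p = 0.00994, 0.00925 and 0.00303). Col4a1 and Col4a2 fell by 3.00 ± 0.53 and 2.81 ± 0.48 (adjusted p = 0.00106 and 0.000912), Col6a6 by 4.24 ± 0.74 (adjusted p = 0.000972) and Col6a1 by 1.95 ± 0.43 (adjusted p = 0.00772). Col10a1 went the other way, from 975 and 1519 at P0 to 19892 and 6073 in the adult, with a difference of 3.38 ± 1.05 that was not called (adjusted p = 0.0663). Col17a1 was at 1419.7 and 1018 and 4585 and 3792, a difference of 1.78 ± 0.63 (adjusted p = 0.122). For neither gene did the P0 and adult libraries overlap, but with 2 libraries an age this held for 41 of the 44 members. The share of all genes without overlap was not computed, so that count cannot be set against it. Col7a1 (0.24), Col4a3 (0.32), Col4a5 (0.35), Col4a6 (0.53), Col8a1 (0.31) and Col27a1 (0.12) had small positive log2 differences that were not called. The count of 21 became 7 without adult library 1, 6 without adult library 2, 15 without P0 library 1 and 10 without P0 library 2, and only the falls of Col4a1, Col4a2, Col6a6 and Col9a1 were called in all 4 refits. No fall changed sign. Shares of all genes called in these refits are not given, so whether the members followed all genes cannot be read from these counts.

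The kind of library was itself measured at E15.5, where both exist. Index libraries were higher in 4 members and lower in 9 (26.4% of all genes called, 10.3% higher and 16.1% lower), with a median log2 difference of -0.07 over the members and -0.39 over all genes. The lower ones were led by Col10a1, Col19a1 (-2.54), Col28a1 (-1.60), Col22a1 (-1.37) and Col12a1 (-1.01), and the higher ones were Col6a4 (2.35), Col26a1, Col7a1 (1.12) and Col23a1 (0.71). The Col6a4 difference turned to -0.16 without esophageal index library 1, which held 320.4 normalized counts. Member counts without 1 library are given next, without the share of all genes called. The count of 13 became 25 without esophageal index library 1, 8 without laryngeal index library 2, 7 without tracheal index library 2, and 8 without either short-code library of the esophagus or of the larynx.

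A collagen chain needs enzymes and partners before it becomes matrix, and lists of these were counted whole. Not every list is given for every comparison. The procollagen proteinases are given only from E13.5 to E18.5, and the lysyl hydroxylases and glycosyltransferases only from E10.5 to E13.5. From E10.5 to E13.5 all 10 prolyl hydroxylase genes, whose products stabilize the helix, rose (median log2 difference 1.33; 13.6% of all genes were called higher), as did 6 of 6 lysyl hydroxylase and glycosyltransferase genes, 5 of 5 lysyl oxidases, which cross-link fibrils, and 12 of 12 genes of proteins that bind fibrils. In the last list Thbs2 rose by 5.28 ± 0.31 (adjusted p = 1.32e-12), Dcn by 5.20 ± 0.22 (adjusted p = 3.02e-15), Aspn by 4.95 and Ogn by 4.74. Of 13 other basement membrane genes 10 rose and 1 (Lama1) fell. From E13.5 to E18.5, 2 of 10 prolyl hydroxylases, 11 of 12 fibril-binding genes, 4 of 5 lysyl oxidases, 5 of 8 procollagen proteinases and 9 of 13 other basement membrane genes rose (13.9% of all genes were called higher), so that the share of prolyl hydroxylases was near that of all genes. Mmp13, a collagenase, rose by 8.49 ± 0.85 (adjusted p = 4.05e-08), Tnxb by 5.47 and Aspn by 4.57, and Gp6, a platelet collagen receptor, fell by 4.39. From P0 to adult 5 of 10 prolyl hydroxylases, 3 of 5 lysyl oxidases, 4 of 12 fibril-binding and 7 of 13 other basement membrane genes fell (2.04% of all genes were called lower). These lists were not refitted without single libraries, under which the members called between these ages went from 21 to between 6 and 15. Mmp13 fell by 5.31 ± 0.97 (adjusted p = 0.00197), Thbs2 by 3.74, P4ha3 by 2.96 and Nid2 by 2.76.

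Pairs of members that adjoin on a chromosome varied together to differing degrees, given as Pearson's r of log2(normalized count + 1) over the 30 short-code libraries, which share age, tissue and depth. Over all 946 pairs r had a median of 0.6315 and ran from -0.871 (Col5a3 with Col26a1) to 0.998. Over the 8 pairs of members next to each other and within 200 kilobases the median was 0.931. Col6a1 and Col6a2 reached 0.998, Col4a1 and Col4a2, whose annotated ends overlap by 356 bases, 0.986, Col3a1 and Col5a2 0.981 and Col4a5 and Col4a6 0.937. Col9a1 and Col19a1 (0.559) and Col6a5 and Col6a4 (0.261) were the lowest. Pairs on different chromosomes also reached such values, with 0.99 for Col1a1 and Col1a2 and 0.984 for Col9a2 and Col9a3. Use of the strand in counting is not stated in the sources used here, so reads from the overlap of Col4a1 with Col4a2 and of Col4a3 with Col4a4 cannot be assigned.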

How the data were processed

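RNA sequencing of 40 libraries (larynx 16, esophagus 12, trachea 12) was analysed from the deposited tables. The authors aligned reads with Bowtie2 2.4.2 to GRCm39 and estimated counts with RSEM 1.3.3, per the submitters' processing notes, and deposited the expected counts per gene before normalization. RSEM divides reads that match several genes. The labels describe a poly-A preparation. Totals per library ranged from 3286403 to 35831491, and counting error is smaller than the spread between libraries except in genes with few counts.

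Of 53647 identifiers, 52610 matched GENCODE vM39 (GRCm39). Here the expected counts were rounded and normalized with median-ratio (RLE) factors, and 36495 genes that reached a normalized count of 1 in 2 or more libraries were tested with edgeR 4.0.16 (R 4.3.3; quasi-likelihood test, Benjamini-Hochberg adjustment over all genes tested). A fit of 20 group means (tissue, age and kind of library, 2 libraries each, 20 residual degrees of freedom) gave 17 comparisons at an adjusted p under 0.05, and a natural spline on age rank (3 degrees of freedom) gave 4 time courses at an adjusted p of at most 0.01. The spline, filter and threshold follow the study, which used another test. The code was tested on simulated data. DESeq2 1.42.0, other normalizations and filters, a replicate block and refits without 1 library were alternatives. The study's methods, and the labels at P0 and adult, call the 2 libraries of a group biological replicates, without stating whether embryos were pooled separately for each. The spread behind each p-value is that between libraries. Libraries of the same number in different groups did not deviate together (correlations -0.403 to 0.466, median -0.011, over 105 pairs of groups), so they were not treated as pairs. Members and lists were chosen with earlier results of these data known, and 2 of 135 list genes were not found. One list of markers is not reported here. Library values were given for a set of 13 named chains, the 2 highest of each type, and up to 5 rises and 5 falls per comparison with a mean of at least 50 normalized counts. The share of a type is its normalized counts over those of nuclear protein-coding genes.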

Additional observations from a re-analysis of the deposited data

How the results depend on the processing

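Of 370 counts of called members recomputed under another setting, 288 stayed within 1.5 times the reported count. Counts of 0 that stayed at 0 are among these 288. Shares of all genes called are given above only for E15.5 alone, for E15.5 in place of E13.5 and without the esophagus. The counts under the other settings cannot be set against all genes. Of 356 values of single members, 319 kept their direction and their side of the threshold. These 356 do not include the refits without 1 library, in which only 4 of 21 calls from P0 to adult held throughout. Without the filter on low values, more members were called from E10.5 to E13.5 in the esophagus (31), larynx (29) and trachea (26), from E13.5 to E18.5 in the esophagus (27), between kinds of library (22), from E15.5 to P0 (6), between trachea and esophagus (10), larynx and esophagus (8) and larynx and trachea (3). In the tests of a difference in change it called 11 between larynx and esophagus, 8 between larynx and trachea and 10 between trachea and esophagus. That fit adds genes with almost no counts to the shared estimate of the spread, so its larger counts are not stronger evidence, and their cause was not tested. DESeq2 called 23 from E13.5 to E18.5 in the esophagus, 5 between trachea and esophagus, 1 between larynx and esophagus and 2 from E15.5 to P0, and 3 and 4 in the differences of change of larynx against esophagus and against trachea. The trachea and esophagus count was 0 with both kinds of library pooled at E15.5 or with a filter at 10 normalized counts, and 2 when the 3 libraries rich in olfactory receptor transcripts were left out. The larynx and esophagus count was 1 as the mean over 5 embryonic ages. Numbers did not pair the libraries. With the replicate number as a block, the trachea and esophagus count was 0 (Col17a1 -1.91, adjusted p = 0.0715 by edgeR's quasi-likelihood test) and the esophageal time course called 16. In alternatives chosen after seeing the data, E15.5 libraries alone called 6 (short-code) and 14 (index) members between trachea and esophagus and 3 and 13 between larynx and esophagus. With E15.5 in place of E13.5, 11 members were called to E18.5, and Col2a1 (1.71), Col9a1 (1.17), Col10a1 (-1.49), Col13a1 (0.19), Col23a1 (0.11) and Col26a1 (0.30) turned direction. With short-code libraries only, the time course called 28 in the esophagus and 21 in the larynx. Leaving out 1 library gave 6 to 15 members for adult against P0 (21 with all libraries), 8 to 19, 13 to 16 and 7 to 11 for E10.5 to E13.5 in esophagus, larynx and trachea, and 28 to 30 over the 3 tissues. It gave 3 to 12, 18 to 26 and 17 to 22 for E13.5 to E18.5 in these tissues and 35 to 37 over all 3. It gave 7 to 25 for the kind of library, 0 to 2 for E15.5 to P0 and for trachea against esophagus, and 0 for the other comparisons of tissues over several ages. At E15.5 alone, it gave 0 to 8 (short-code) and 9 to 36 (index) between trachea and esophagus, 0 to 3 and 7 to 36 between larynx and esophagus and 0 to 2 and 0 to 1 between larynx and trachea. For the time courses it gave 37 to 41 over the 3 tissues, 1 to 29 in the esophagus, 29 to 38 in the larynx and 24 to 30 in the trachea. With 2 libraries a group, a lone library left in a group was assumed to vary like the other groups.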

Other observations

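The genes whose level varied most like a collagen chain, among 14126 genes that encode no collagen chain and had a mean normalized count of at least 50, differed by type. Likeness is Pearson's r of log2(normalized count + 1) over the 30 short-code libraries, given as a description since the points share age, tissue and library. Nearest to Col1a1 were Tgfbr2 (0.975), which encodes a TGF-beta receptor, C1qtnf1 (0.964), Adgre5 (0.963), Itpripl2 (0.962) and Abi3bp (0.962). Nearest to Col2a1 were Matn3 (0.939) and Matn1 (0.907), which encode cartilage matrilins, Cnmd (0.904), Hapln1 (0.899), the link protein of cartilage proteoglycan, and Xylt1 (0.896). Cnmd, Hapln1 and Matn1 are also on the list of chondrocyte markers. Nearest to Col4a1 were Tor1aip1 (0.974), Lamb2 (0.974), a laminin chain, Nid1 (0.972), which bridges laminin and collagen IV, Sidt2 (0.966) and Adam15 (0.964). Nearest to Col17a1 were genes of stratified epithelium, namely Barx2 (0.955), Pkp1 (0.954), Serpinb5 (0.954), Krt15 (0.949) and Fat2 (0.945).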
